A study of Drosophila melanogaster with 12 samples.

Results

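Outside the X chromosome, 404 regions of the modENCODE chromatin map used in this study carry State 5, the state whose name is active gene on the male X. They were taken from the deposited list of 42126 regions as the rows with state number 5 on 2L, 2R, 3L or 3R. Chromosome 4 and the names that end in Het were left out, as were the 1926 State 5 regions on X. The study mapped GFP-tagged H3A31S, H3.3S31A, H3 and H3.3 by chromatin immunocleavage (ChIC), in which an antibody to GFP directs micrococcal nuclease to the tagged histone, in Drosophila melanogaster testes. H3A31S and H3.3S31A carry the residue of the other histone at position 31 of the tail, and H3 and H3.3 are the unchanged controls. There were 3 replicates of each histone, 12 libraries in all, each from 18 to 20 pairs of testes of males aged about 2 days and reared at 25°C. In every group the transgene was driven in the germline by nanos together with Unpaired, a JAK-STAT ligand, so that all groups, controls included, were tumors of stem-like germ cells and somatic cells, and only very large testes with few differentiating cells were taken. The cells still had their endogenous, untagged histones. The columns of the deposited table of reads have no names that would match them to libraries. They were not used, so what follows describes the chromatin list to which the histones were compared, and no histone level is given for any region.

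In Drosophila males the single X is transcribed at a raised level by the male-specific lethal (MSL) complex, which binds active X-linked genes and acetylates lysine 16 of histone H4. The acetylated mark spreads over gene bodies together with trimethylated lysine 36 of histone H3, a mark of elongating polymerase, and State 5 is the label that the modENCODE model gave to chromatin rich in both. On the other chromosomes active gene bodies are usually in State 2 (transcription elongation), which carries the lysine 36 mark. The states were defined in cultured cell lines and not in testis, so the label of a region says nothing on its own about the germ cells of this study. The list belongs to no library, regions of a list are not replicates of a condition, and no test was run on them; all comparisons between sets of regions are descriptions.

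A few stretches of State 5 chromatin on 2L are printed here. They were picked for a repeat, for GC content or for exon bases, and not as typical of these regions. Coordinates could be read against the dm6 genome only on 2L. There 40.1% of 3625 transcription start sites (TSSs) of protein-coding transcripts lay inside State 1 (promoter and TSS) regions at the listed coordinates. With the regions moved by 2 to 50 kb in either direction the share was between 10.1% and 19.7%. The next 4 windows of 200 bases, the step of the list, are the windows free of untranslated sequence with the most copies of GAGAGAGA in the 4 regions richest in it. This repeat is the core of the element that the MSL complex recognises on X, and its copies, on either strand and overlaps included, are in capitals. All are written 5′ to 3′ on the plus strand, from RefSeq's copy of dm6.
CG42784 intron, chr2L:13489563-13489762: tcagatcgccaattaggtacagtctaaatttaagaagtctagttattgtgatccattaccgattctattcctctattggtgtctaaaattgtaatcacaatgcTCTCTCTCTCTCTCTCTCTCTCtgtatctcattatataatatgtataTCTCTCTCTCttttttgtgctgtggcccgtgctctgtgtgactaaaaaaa
Mhc intron, chr2L:16772763-16772962: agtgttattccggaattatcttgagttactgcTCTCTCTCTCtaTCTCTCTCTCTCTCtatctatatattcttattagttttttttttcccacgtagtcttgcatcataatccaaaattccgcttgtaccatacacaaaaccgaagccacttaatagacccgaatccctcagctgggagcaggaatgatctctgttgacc
Mhc intron, chr2L:16783963-16784162: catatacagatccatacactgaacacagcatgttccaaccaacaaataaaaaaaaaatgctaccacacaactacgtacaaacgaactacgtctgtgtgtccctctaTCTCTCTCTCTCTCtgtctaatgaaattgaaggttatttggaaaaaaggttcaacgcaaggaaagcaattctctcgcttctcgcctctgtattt
intergenic, chr2L:20260363-20260562: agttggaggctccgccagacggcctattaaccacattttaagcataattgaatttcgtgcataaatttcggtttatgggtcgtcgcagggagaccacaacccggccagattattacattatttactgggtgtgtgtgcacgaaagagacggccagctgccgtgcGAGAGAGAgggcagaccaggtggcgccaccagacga
The first window has 10 overlapping copies, in an intron shared by CG42784 and CG46308. Those in Mhc, the muscle myosin heavy chain gene, have 6 and 4. The intergenic window has 1 copy. The first 3 have their copies in CT runs on the plus strand and a GC content of 36%, 40% and 39%, while the last is at 52%. The regions that hold them are 1200, 1600, 1200 and 5800 bp long. The next sequence is the coding window with the highest GC content in the region of chinmo, shown because chinmo was the 1 gene of the lists that State 5 touched and chosen after its values were seen. After it comes the smallest region with the most exon bases, in which the capitals mark the exon of the non-coding gene CR45458.
chinmo coding exon, chr2L:1694563-1694762: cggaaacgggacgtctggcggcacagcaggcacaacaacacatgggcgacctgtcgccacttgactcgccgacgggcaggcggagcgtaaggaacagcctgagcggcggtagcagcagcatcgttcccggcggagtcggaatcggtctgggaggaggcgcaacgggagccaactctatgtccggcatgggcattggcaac
CR45458 exon, chr2L:14746763-14746962: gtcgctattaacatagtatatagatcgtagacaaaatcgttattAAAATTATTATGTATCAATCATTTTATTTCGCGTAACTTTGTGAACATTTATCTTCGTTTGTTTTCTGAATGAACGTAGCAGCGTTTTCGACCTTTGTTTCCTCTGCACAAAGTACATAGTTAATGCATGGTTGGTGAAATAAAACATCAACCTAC
The chinmo window is 65% GC and the CR45458 region 32% GC, and neither has a copy of GAGAGAGA. The other 44 bases of the CR45458 region are intergenic.

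State 5 regions outside X were few and short. They made up 1.21% of the 33314 regions on 2L, 2R, 3L and 3R and 0.373% of their summed length, against 24.4% of the regions and 28.5% of the length on X. Their median length was 1200 bp, with quartiles at 800 and 2050 bp, against a median of 4000 bp and quartiles at 1800 and 8200 bp for State 5 on X. Of the 404 regions, 131 (32.4%) were under 1000 bp, against 8.98% of the State 5 regions on X, and 7 had the smallest length in the list, 200 bp. Among the other states of the same arms, State 7 (pericentromeric heterochromatin) had the same median length, and the medians of the rest ran from 1800 bp for States 1 and 6 to 3600 bp for State 9.

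**Figure D1:**
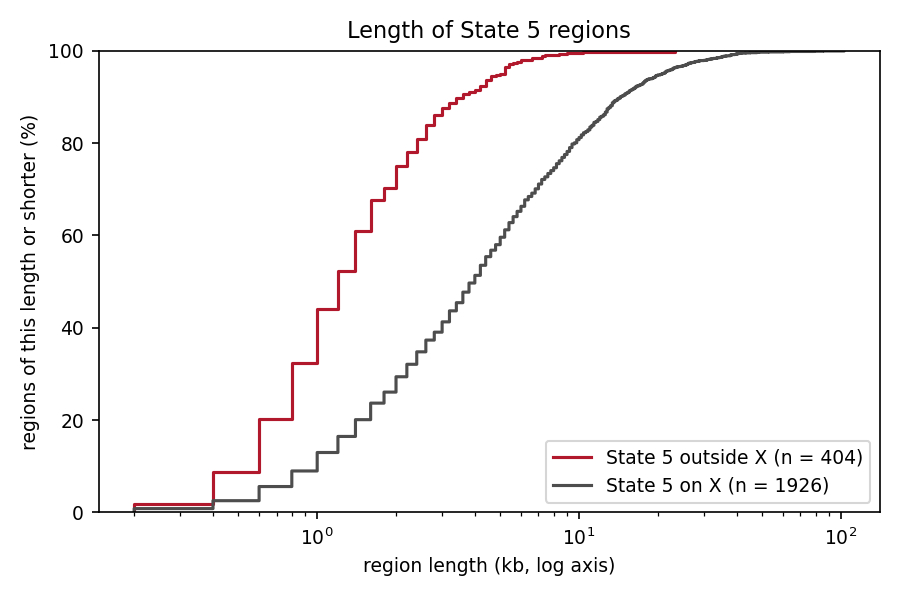
Share of regions (%) at or below each length (kb, log axis) for the 404 State 5 regions outside X and the 1926 on X. The curve for the regions outside X lies to the left, with a median of 1200 bp against 4000 bp on X.

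The 4 arms did not carry the state evenly. Chromosome 3R had 169 of the 404 regions (41.8%), 1.83% of all regions listed for that arm. There were 90 regions on 2L (1.17% of its regions), 75 on 2R (0.940%) and 70 on 3L (0.832%). The regions on 3R were also the longest, with a median of 1600 bp, against 1200 bp on 2L and 1000 bp on 2R and 3L. On 3R the state was concentrated at the start of the arm. In the first 9 Mb of its listed coordinates lay 134 of the 169 regions (79.3%), where 34.3% of all 3R regions lie. There 4.23% of the regions were State 5, against 0.577% beyond 9 Mb. The first 9 Mb of the other arms held 36.7% of the State 5 regions of 2L, 52.0% of those of 2R and 45.7% of those of 3L. Of all regions of 2L, 2R and 3L they held 43.0%, 41.7% and 38.3%. The limit of 9 Mb was set after the positions were seen.

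Many of the regions stood near another of their kind. The distance to the nearest other State 5 region had a median of 16.4 kb outside X and of 0 kb on X, where 1469 of 1926 regions overlap or abut another, against 35 of 404 outside X. With overlapping or abutting regions merged, the median outside X was 25.7 kb. In the counts that follow, a region that overlaps another has that one as a neighbor. Within 10 kb of another lay 186 of the 404 regions (46.0%), and 97 were over 100 kb from the next. On 3R 59.2% had a neighbor within 10 kb, on 2L 44.4%, on 2R 40.0% and on 3L 22.9%. The run with the most members, linked by gaps of at most 10 kb, lay at chr3R:6659803-6725402 and held 11 regions in 65.6 kb. A run of 7 lay at chr3R:1049403-1081002. Runs of 5 were found on 2L over Mhc and its neighbor (chr2L:16772763-16790162) and at chr2L:20254763-20271362, on 2R at chr2R:6704288-6736887 and on 3R at chr3R:95603-145202. The run of 7 and the runs of 5 at chr2L:20254763-20271362 and chr3R:95603-145202 include regions that lie inside another region of the run. They thus hold fewer separate places than regions. Coordinates on 2R, 3L and 3R are those of the list, whose build is not stated, and were not compared with genes.

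Nearly every base of the list lies in a second region, which gives 403 of the 404 State 5 regions a second label that the choice of regions did not use. On the 4 arms 97.4% of the covered bases are in 2 regions, and no base is in more. Of the bases of State 5 regions outside X that lie in a second region, 41.6% are State 2 there and 4.40% are State 5. On X the same shares were 0.367% for State 2 and 73.8% for State 5. The share of State 2 on X as a whole was not measured. Outside X the next most frequent second labels were State 9 (transcriptionally silent, intergenic) at 14.4% and State 4 (active introns) at 10.0%, followed by State 3 (regulatory regions) at 7.90%, State 8 (heterochromatin-like) at 6.88%, State 7 at 6.86%, State 1 at 6.38% and State 6 (Polycomb) at 1.64%. State 5 thus had the lowest share of its own label in the second region among the 9 states on these arms. For the other states this share ran from 9.89% for State 8 to 83.4% for State 1, and it was 77.6% for State 2. Since State 2 covers 15.2% of the summed length of these arms and State 5 covers 0.373%, both shares are above those of the arms as a whole.

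**Figure D2:**
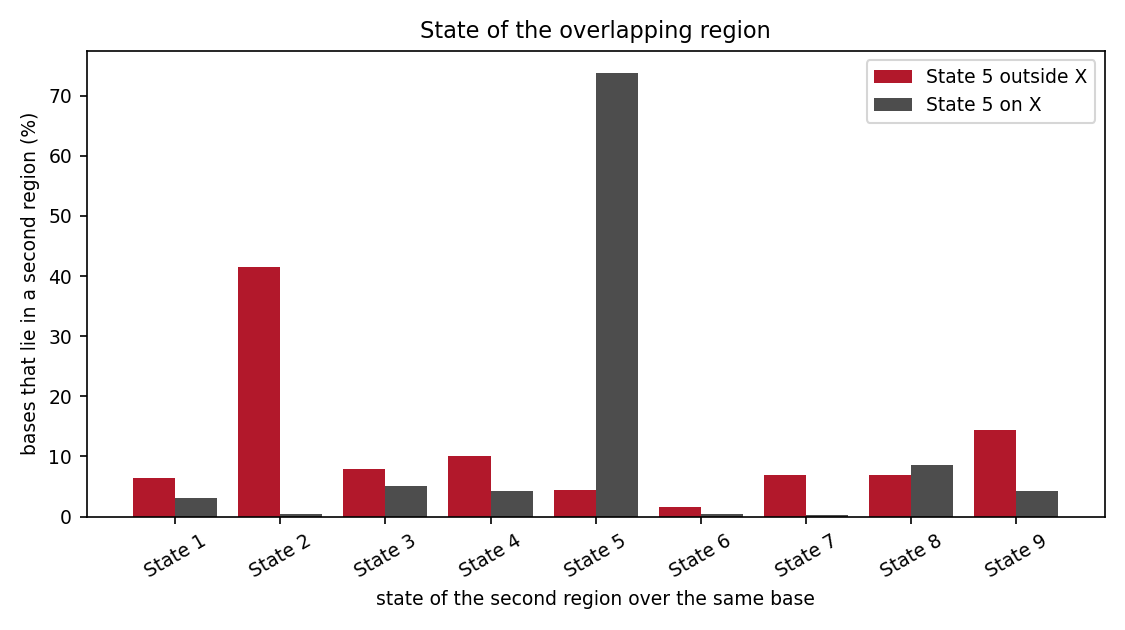
State of the second region over bases of State 5 regions outside X and on X, as a percent of the bases that lie in a second region. Outside X, State 2 leads with 41.6% and State 5 has 4.40%, while on X State 5 has 73.8%.

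Counted by region, 96 of the 404 (23.8%) lay wholly inside a State 2 region, against 2 of 1926 on X, and 34 (8.42%) touched a second State 5 region, against 76.0% on X. The longest region of 2L, at chr2L:829963-836562 (6600 bp), was State 2 in its second label along its whole length. So was the longest of 3L, at chr3L:5154601-5159800 (5200 bp), and in the longest of 2R, at chr2R:7555888-7564887 (9000 bp), 8800 bp were. The longest of 3R, at chr3R:109203-132402 (23200 bp), went another way, with 19000 bp in State 4 and 3600 bp in State 9.

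The share of State 2 as the second label differed between the arms. It was 54.2% of such bases on 3R, 35.6% on 2R, 26.6% on 3L and 25.2% on 2L. Without 3R it was 28.8%. In the first 9 Mb of 3R it was 57.0%, and beyond them 32.7%. On 2L, States 7 and 8 were more frequent as the second label than on the other arms, at 16.1% and 16.5%, against 2.75% to 7.69% and 3.33% to 4.88%. The 9800 bp of the run over Mhc and its neighbor were all State 8 in the second label. The share of each state on each single arm as a whole was not set beside these values. On 3L the second label was State 9 for 26.8% of the bases, slightly more than for State 2.

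**Figure D3:**
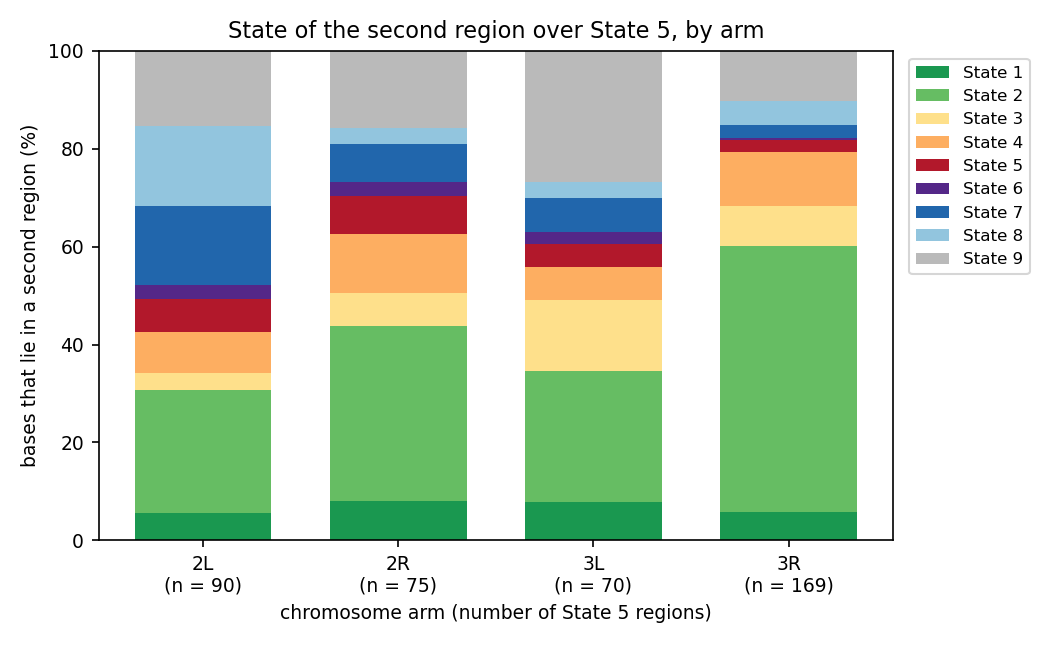
State of the second region over State 5 bases on each of the 4 arms, as a percent of the bases that lie in a second region, with the number of State 5 regions under each arm. State 2 takes 54.2% on 3R and 25.2% on 2L, where States 7 and 8 have 16.1% and 16.5%.

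The regions that meet a State 5 region end to end were also State 2 more often outside X than on it. Of 865 such neighbors outside X, 25.2% were State 1, 22.7% State 2, 16.2% State 3 and 15.4% State 9. Of 4246 on X, 52.9% were State 1, 0.777% State 2, 14.9% State 3 and 9.33% State 9, and 16.2% were State 8. State 2 was the most frequent neighbor on 3R (32.1%), State 1 on 2R (32.3%) and 3L (22%), and State 9 on 2L (22.6%).

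On 2L the bases of State 5 regions lay in genes a little more often than those of the arm as a whole (74.9%, against 69.0%), and more of them were coding. Of 144200 bases, 28.2% were coding exon, 34.3% intron, 6.45% 3′ UTR, 3.49% 5′ UTR, 2.45% other exon and 25.1% intergenic. Over the listed span of 2L these were 18.4%, 40.4%, 4.82%, 3.21%, 2.22% and 31%. State 2, the most frequent second label, had 45.9% coding exon, 14.5% 3′ UTR and 5.81% intergenic sequence. State 5 therefore had less coding and 3′ UTR sequence than State 2 and more intergenic sequence. Its coding share was above those of States 3, 4, 6, 7, 8 and 9, which ran from 6.11% to 13.2%. Its GC content was 43.1%, between 41.9% for the arm and 44.1% for State 2, and 1.36% of its bases were annotated as transposon, against 5.18% of the arm and 23.6% of State 7.

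**Figure D4:**
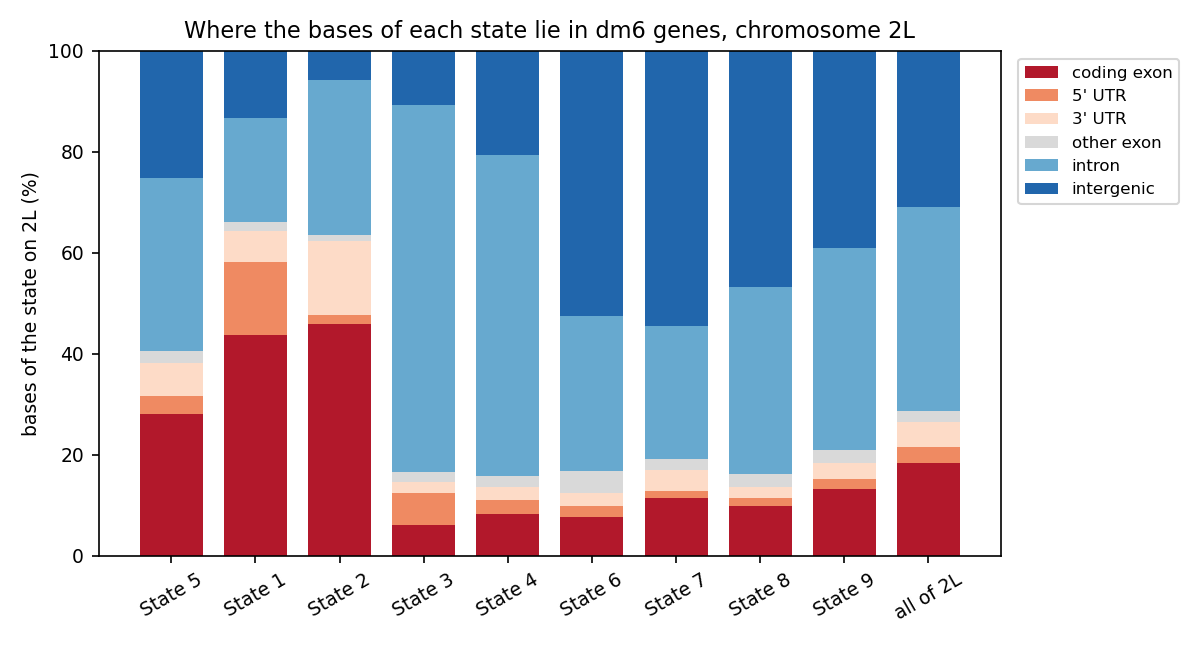
Bases of each state on 2L by their place in the dm6 annotation, in percent. State 5 has 28.2% coding exon, less than States 1 and 2 and more than the other states, and 25.1% intergenic sequence.

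Of the 90 regions, 69 (76.7%) overlapped a protein-coding gene, 5 (5.56%) only a non-coding gene and 16 (17.8%) no gene other than a transposon. Among the other states on 2L the share over a protein-coding gene ran from 64.0% for State 6 to 97.8% for State 2, and was 80.7% for State 9. Coding bases were found in 48 of the 90 State 5 regions, and 12 lay wholly in introns. A protein-coding TSS was inside 17 of the 90 (18.9%) and a 3′ end inside 16 (17.8%). For State 2 these shares were 27.5% and 74.6%, and for State 1 91.4% and 40.4%. State 7, with 18.8% and 19.3%, was near State 5 in both, and State 4 had 29.9% and 17.8%. These shares were not adjusted for the lengths of the regions. The median distance to the nearest TSS was 1099 bp.

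What a region held went with its leading second label, the state with the most of its bases in the second region. The 20 regions of 2L led by State 2 all overlapped a protein-coding gene, and 18 of them held coding bases. Together they were 46.0% coding, 14.4% 3′ UTR and 3.24% intergenic, close to the 45.9%, 14.5% and 5.81% of State 2 as a whole. The State 2 bases of these regions are part of that whole. The closeness follows in part from grouping the regions by that label and is no separate finding. The 17 led by State 9 were 14.7% coding and 30.5% intergenic, the 13 led by State 8 were 23.3% and 22.9%, and the 13 led by State 7 were 18.5% and 45.9%. In the 7 led by a second State 5 region 20.1% of the bases were coding and 64.8% intergenic, where bases shared by overlapping State 5 regions count in each of them. State 6 led in 3 regions, chinmo's among them, and State 3 in 3. Base composition went with the content too. The 27 regions that were more than 50% coding had a median GC content of 50.7%, against 40.7% for the 42 with no coding base. All 15 regions over 50% GC were among the 27.

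Across genes the regions lay toward the 3′ end. In the 63 touched genes of at least 1000 bp, cut into 5 equal parts, the State 5 bases were distributed as 12.5%, 9.78%, 18.3%, 25.0% and 34.4% from the 5′ to the 3′ end. State 2 in the 1193 genes it touched had a like course, with 7.64%, 14.1%, 19.5%, 24.5% and 34.1%, while State 1 had 41.5% in the part at the 5′ end and 11% in that at the 3′ end. State 5 touched the last part of 36 of the 63 genes and the first part of 20.

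**Figure D5:**
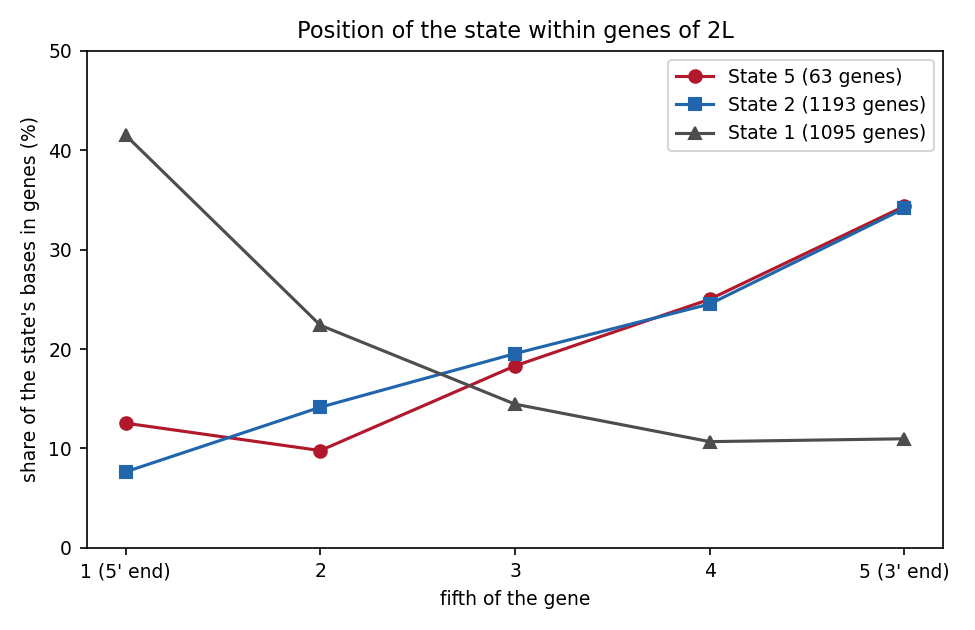
Share (%) of the bases of States 5, 2 and 1 in each of 5 equal parts of the protein-coding genes of 2L they touch, from the 5′ to the 3′ end. States 5 and 2 reach 34.4% and 34.1% in the last part, where State 1 is at 11%.

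State 5 regions touched 65 of the 2657 protein-coding genes of 2L (2.45%), while a State 1 region touched 46.2% and a State 9 region 45.2% of them. Counting only bases that were State 5 in both labels, 2 genes were touched, not 65. Of all 3611 genes other than transposons any State 5 region touched 74 (2.05%). In 13 protein-coding genes (0.489%) at least 50% of the bases were in the state. The touched genes were long, with a median of 7273 bp, against 1986 bp for all protein-coding genes of 2L, and 18 of the 65 were over 20 kb. Median lengths of the genes touched by the other states ran from 1948 bp for State 8 to 7436 bp for State 3, and the median was 3139 bp for State 2. Of the 65 genes, 70.8% were also touched by State 2, 52.3% by State 4, 50.8% by State 3, 40.0% by State 7 and 15.4% by State 6, against 48.1%, 23.2%, 16.1%, 11.1% and 7.26% of all protein-coding genes. For States 1, 9 and 8 the shares were 56.9%, 55.4% and 33.8%, against 46.2%, 45.2% and 13.4%. All 8 states were thus met more often in these longer genes, whose State 5 bases also lie in a second region.

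The gene with the most bases in the state was Mhc, whose myosin heavy chain builds the thick filaments of all muscles. Along it 4 regions covered 8800 bp (39.6% of the gene), between chr2L:16772763 and 16784762, from 27.9% to 82.0% of the way along it. Of these bases 7069 were intron and 1731 coding. State 8 covered 98.2% of Mhc in the other labels and State 9 37.8%, while State 2 covered none of it. The neighboring Cyt-b5-r had 1000 bp (51.3%) in the remaining region of the same run. Other genes of muscle were Scgalpha, a sarcoglycan of the muscle membrane, with 1934 of its 1948 bp (99.3%) in the state, 1000 of them State 5 in both labels, and Msp300, a giant protein that anchors muscle nuclei, with 1400 bp (1.32%). Scgalpha and Msp300 were picked out after their values were seen, and the muscle genes of 2L were not counted as a set.

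Second among the 12 most covered genes was Ac3. It encodes an adenylyl cyclase and had 5978 bp (38.9%) in 2 regions, of which 3950 bp were intron, and State 7 covered all of it. The region at chr2L:21642563-21648162 (5600 bp) is the third longest of 2L. The synaptic vesicle calcium sensor gene Syt1 had 3800 bp (13.7%) in 1 region at chr2L:2784363-2788162, of which 3551 bp were intron. Sema1a, a semaphorin of axon guidance, had 2816 bp (2.17%) in 2 regions with no coding base, and DIP-epsilon, an immunoglobulin-type surface protein of synaptic partner cells, had 4000 bp (11.9%) in 3 regions, of which 3802 bp were intron. Sickie (sick), a regulator of actin, had 3598 bp (2.22%), 2290 of them coding. Its coding bases lay in the region near the 3′ end, and the region at the 5′ end had none.

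A single region joined dock and drongo. It is the longest of 2L, at chr2L:829963-836562. The genes run toward each other, and the region covered the 3′ part of both, 3279 bp of dock (45.1%), which encodes an SH2/SH3 adaptor protein of axon guidance, and 2979 bp of drongo (17.0%). Pi3K21B, the regulatory subunit of phosphoinositide 3-kinase, had 2800 bp (38.1%), of which 2103 bp were 3′ UTR. Pgant5, which adds the first sugar of mucin-type chains to proteins, had 3400 bp (15.9%), 1527 of them coding, at chr2L:5075563-5078962. CG17646 had 4800 bp (26.5%) in 1 region at its 3′ end, chr2L:1745763-1750562, and CG10348 had 5600 bp in 2 regions, 5460 of them intron.

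Of the remaining regions among the 10 longest of 2L, 1 had no gene, 1 met only a non-coding gene and 3 met a protein-coding gene. The second longest, at chr2L:20258963-20264762 (5800 bp), held all of CG17570 and 4794 intergenic bases. Another at chr2L:20267163-20271362 (4200 bp) was wholly intergenic, and CG17571 in the same run had all of its 1205 bp in the state. At chr2L:21950763-21955962 (5200 bp) only the non-coding gene lncRNA:CR45703 was met. One at chr2L:20825363-20828562 (3200 bp) covered 2382 bp (48.4%) of CG9331, and one of 4400 bp, at chr2L:16777763-16782162, was the longest of those in Mhc.

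Of 2 listed genes of dosage compensation and 15 listed genes of germline stem cells and JAK-STAT signaling on 2L, State 5 touched 1. Neither msl-1 nor msl-2, which encode the scaffold and the male-limited subunit of the MSL complex, held State 5. State 2 covered 79.6% of msl-1 and 75.6% of msl-2, State 1 covered 28.3% and 29.5%, and the nearest State 5 region was 27.8 kb and 96.7 kb away. Of the 15 germline and JAK-STAT genes, 1 (chinmo) was touched, against 2.45% of all protein-coding genes. Chinmo encodes a transcription factor that testis stem cells need. Its region, chr2L:1694563-1697162 (2600 bp, 4.87% of the gene), lies from 81.1% to 85.9% of the way along the gene and holds 2168 coding bases. Its GC content was 58.5%. State 6 covered 99.8% of chinmo and State 3 63.1%. Outside the list and picked out after its values were seen, vir-1, which is induced through JAK-STAT signaling on viral infection, had 2093 bp (10.4%) in the state.

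The other 14 genes of that list held no State 5. Nearest to a State 5 region were tj, which encodes a transcription factor of somatic gonad cells (4.70 kb away, 100% State 6), Mad, the transcription factor of BMP signaling (11.7 kb), and His3.3A, an H3.3 gene (19.4 kb, 100% State 1). Pvr, a receptor tyrosine kinase, was 63.3 kb away. The gene for heterochromatin protein HP1a was 92 kb away, and the BMP receptor gene tkv 109 kb. The distances were 118 kb for eya, a transcription factor of cyst cells, 175 kb for CycE, the cyclin of entry into S phase, 314 kb for the germline helicase gene vas and 325 kb for the BMP ligand gene dpp. They were 372 kb for Socs36E, the inhibitor of JAK-STAT signaling, 505 kb for piwi and 521 kb for aub, which both act with small RNAs against transposons, and 587 kb for esg, a transcription factor of stem cells.

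Sets of housekeeping and histone genes, taken by their symbols, held no State 5 either. It touched none of 19 ribosomal protein genes, of which 17 were touched by State 1 and 4 by State 2. Nor did it touch any of 12 mitochondrial ribosomal protein genes (12 by State 1), 8 genes with proteasome symbols (4 by State 1 and the other 4, which include copies such as Prosalpha6T, by State 9), 5 translation factor genes (5 by State 1) or 112 histone genes (1 by State 1). None of 14 developmental regulators held State 5, and 13 of these were touched by State 6. Sox21a, also in that list, was not found among the genes of 2L. The share of all protein-coding genes touched was 2.45%, so a count of 0 in the smaller sets is near it. Gene length was not adjusted for, and the genes that State 5 touched were long, with a median of 7273 bp. Of the 112 histone genes, His3.3A, also in the germline list, lies apart and is the 1 touched by State 1. The others lie side by side in tandem copies, so their 0 is not a count over separate places.

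Picked out after their values were seen, a few more of the 65 genes are given here. Numb, an inhibitor of Notch that is inherited by 1 daughter in asymmetric divisions of neural precursors, had 400 of its 26716 bp in the state. The meiosis gene c(2)M, part of the axis of paired chromosomes, had 800 bp (29.9%). PNUTS, a nuclear partner of protein phosphatase 1, had 1600 bp (24.3%), and PCNA2, a second copy of the replication clamp, had 740 bp (63.4%). The Nimrod genes NimB1, NimB2 and NimB4, of a family of immune proteins, had 58.5%, 57.3% and 58.9% of their bases in the state.

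The GAGAGAGA repeat was rare in the State 5 windows of 2L, as it was in all windows of the arm. Cut into windows of 200 bases, 5 of 721 State 5 windows (0.693%, 95% Wilson interval 0.297% to 1.61%) held GAGAGAGA on either strand, against 1.03% of all 114926 windows. State 3 had the highest share, 1.86%, which is above the State 5 interval, and State 2 had 0.720%. The shorter GAGAGA was in 6.93% of the State 5 windows and in 6.66% of all. TATCGATA, the DNA replication-related element found at promoters of housekeeping genes, was in 6 State 5 windows (0.832%, interval 0.382% to 1.80%), against 0.492% of all windows and 2.26% of State 1 windows. CACACACA, taken for comparison, was in 4.58% of State 5 windows and 3.87% of all. The intervals for State 5 hold the shares of all windows, the State 5 windows included, for each of these 4 motifs. They took each window as 1 trial, although the windows lie side by side in 90 regions. They are thus a rough yardstick and not a test. Matches are letters in the sequence and not known binding sites.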

How the data were processed

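Per the labels and the methods of the study, the ChIC libraries of the 4 tagged histones were sequenced as paired reads of 50 bases and aligned by the authors to dm6 with Bowtie2 (version not given in the sources used here). Reads with MAPQ of 10 or less and redundant reads were removed. The deposited list of regions, which the authors took from modENCODE, gives a state number from 1 to 9 for each region, the other kind of value in the data and the only one used. The 12 columns of reads per region, values per sample, have no names and were not used. The planned sum over them and the study's test between histones are therefore not reported. Their sum was looked at before this was settled.

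Positions in the list count from 0 and are printed counting from 1. Genes, exons and UTRs came from Ensembl release 115 (dm6) and bases from RefSeq's dm6, on 2L only. A base in several classes was given to coding exon, 5′ UTR, 3′ UTR, other exon, intron and intergenic, in this order. A gene was touched if it shared 1 base with a region. Named were the 10 longest regions of 2L, the longest of each other arm, up to 4 with the most GAGAGAGA, the 12 genes with the most bases in the state, and genes of the lists as the report gives them. The members and lists were chosen with earlier results of these data known. Intervals are at 95% and cover counting error only. They are Wilson intervals for shares, and for medians they come from the ranks of the values. Overlap functions were tested on simulated data. Python 3.11.15, numpy 2.4.6, pandas 2.3.3 and scipy 1.17.1 were used. Alternatives are in the closing section.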

Additional observations from a re-analysis of the deposited data

How the results depend on the processing

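No paired analysis was possible because the list of states belongs to no sample, and leaving out each replicate in turn was not run for the same reason. The 3 alternatives planned for summed reads were not run either, since the reads were not used. Of 21 values under alternatives, 11 stayed within 1.5 times the reported count or within the 95% interval of the reported value, and 10 did not. The intervals for shares of bases took each region as 1 trial, although regions are not replicates. They serve here as a rough yardstick and not as a test. With regions of at least 1000 bp alone the median length was 1600 bp. With 1 vote per region, State 2 was the second label of 35.7% of the regions, not 41.6%, and State 5 of 7.20%, not 4.40%. Without 3R, an alternative chosen after seeing the data, State 2 had 28.8% of the bases. On 2L, 13 genes had at least 50% of their bases in the state, none of them in the lists (0 against 1), and 2 genes were touched by bases that were State 5 in both labels, against 65. Of those 5000 bases 18.6% were coding. Of their 25 windows 0% held GAGAGAGA (interval 0% to 13.3%), and these are too few to compare. The shorter GAGAGA was in 6.93% of all State 5 windows. It is present wherever GAGAGAGA is, so its share could not be the lower, yet it counts among the 10. The stricter rules count fewer genes and bases by their construction, and the cause of the other differences was not tested. The list gives no depth or error for a region.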
